A study of Mus musculus with 11 samples.

Results

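The earliest transcriptional response to 4-hydroxytamoxifen (OHT) was read from 8 of the 11 arrays in the study, 4 taken at 0 h and 4 at 48 h. All arrays titled with those 2 times were used, and each was set beside the array of the other time that carried the same number, which gave 4 pairs. The 3 arrays at 96 h entered the model fit, where they help to estimate the spread between arrays, and are not described. The cells were 4 lines of leukaemic granulocyte-macrophage progenitors (L-GMP) that had been established from leukaemic mice after transformation with MLL-AF9. They had a C57BL/6 background and the genotype Jmjd2a/b/cf/f;Rosa26::CreERT2, in which Kdm4a, Kdm4b and Kdm4c (older names Jmjd2a, Jmjd2b and Jmjd2c) carry floxed alleles and a tamoxifen-activated Cre recombinase is expressed from the Rosa26 locus. They grew in RPMI with 20% serum and 10 ng/ml interleukin 3. The 0 h arrays hold cells before the drug, which already carry the floxed alleles, the recombinase and the fusion oncogene, and the 48 h arrays hold cells after 48 h in 500 nM OHT. No drug-treated cells without floxed alleles and no untreated cells kept for 48 h enter the comparison, so loss of the 3 enzymes, action of the drug or of the recombinase, and time in culture cannot be told apart. The labels do not say which of the 4 lines is on which array, so the p-values measure the spread between these arrays, and 4 arrays a group limit the precision.

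Kdm4a, Kdm4b and Kdm4c encode Jumonji-type enzymes that take methyl groups off lysines 9 and 36 of histone H3, marks tied to silenced chromatin and to transcribed gene bodies. CreERT2 is a recombinase fused to a mutant oestrogen receptor: it stays in the cytoplasm until OHT binds it, then enters the nucleus and cuts out DNA between loxP sites. Messenger RNA and protein made before the cut persist for a time. MLL-AF9 is a fusion oncogene of acute leukaemia that holds myeloid progenitors in a self-renewing state, in part through Hoxa genes and Meis1, and cells of this kind are commonly grown with interleukin 3.

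Total RNA was labelled with 1 dye, Cy3, and all 8 samples were hybridised to 1 slide. Values are given as the scaled log2 signal, the log2 of a probe's processed signal less the 75th percentile of the same array, so that 1 unit is a 2-fold difference and 0 is the level of a probe brighter than 75% of the array. The 75th percentile itself was 149 to 204 signal units at 0 h and 108 to 147 at 48 h, while between 50.2% and 59.3% of the non-control spots stood well above background on any of the 8 arrays. All 10 marker genes of the progenitor type were well above background on all 8 arrays, and their summed linear level, in units of the array's 75th percentile, was 877 to 1140 at 0 h and 1314 to 1409 at 48 h. Ctsg, the brightest of the 10 at a mean of 9.62 and then 9.84, weighs most in this sum and was not called. Only Mpo and Ms4a3 were called, both higher, while Kit, Ptprc and Spi1 had lower means at 48 h, without a call. Markers of other cells were also read: 2 of 6 erythroid markers were well above background on all 8 arrays, with Hbb-b1 and Alas2 above it on none, and the 6 summed to 0.378 to 0.483 at 0 h and 0.449 to 0.808 at 48 h. Of 6 T cell markers, 5 were above background throughout and Cd3g on no array, and their sum went from 20.1 to 24.8 at 0 h to 16.3 to 20.4 at 48 h. In that set Lck was called lower and Cd3d higher, while Cd3e, Cd4 and Cd8a were not called. Of 6 mast cell markers 4 were above background throughout, with Fcer1a and Ms4a2 on none, at summed levels of 5.34 to 8.87 and 5.09 to 10.2. The 6 B cell markers summed to 1.35 to 4.40 and 2.72 to 6.14, the 6 megakaryocyte markers to 0.954 to 7.44 and 3.78 to 9.18, and the 6 stromal markers, with Pdgfra and Cdh5 above background on none, to 0.993 to 2.09 and 0.839 to 1.29. The part that a shift in cell types may have in any result was not tested. In bulk RNA, fewer cells of a type and less RNA per cell cannot be told apart.

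The 3 floxed genes were measured first, since they test the labels. Kdm4c stood at 1.05, 0.65, 1.17 and 0.87 on the 0 h arrays and at -3.92, -3.67, -4.04 and -4.43 on the 48 h arrays, where 2 of the 4 arrays had it well above background. It fell by 4.95 ± 0.17 on the log2 scale (SE, n = 4 against 4, limma adjusted p = 5.4e-07), which left 3.24% of its 0 h level. Each SE comes from the fit of all 11 arrays, so the 96 h arrays weigh in it too. Kdm4b read 1.55, 1.42, 1.58 and 1.56 at 0 h and -1.63, -1.77, -1.93 and -1.76 at 48 h, a fall of 3.30 ± 0.10 to 10.2% (limma adjusted p = 4.23e-07). Kdm4a read 3.63, 3.54, 3.99 and 3.85 at 0 h and 2.08, 1.97, 2.38 and 2.20 at 48 h. Its fall of 1.59 ± 0.13 left 33.1% of the signal (limma adjusted p = 0.000641), while a dimmer Kdm4a probe differed by -0.23 with an adjusted p of 0.593. For all 3 genes the highest 48 h array lay below the lowest 0 h array. Genes that lie beside them did not pass the test: St3gal3 and Ptprf beside Kdm4a differed by -0.18 and 0.34, Uhrf1 and Ptprs beside Kdm4b by 0.40 and 0.27, and Frmd3 and Dmac1 beside Kdm4c by -0.09 and 0.37.

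**Figure D1:**
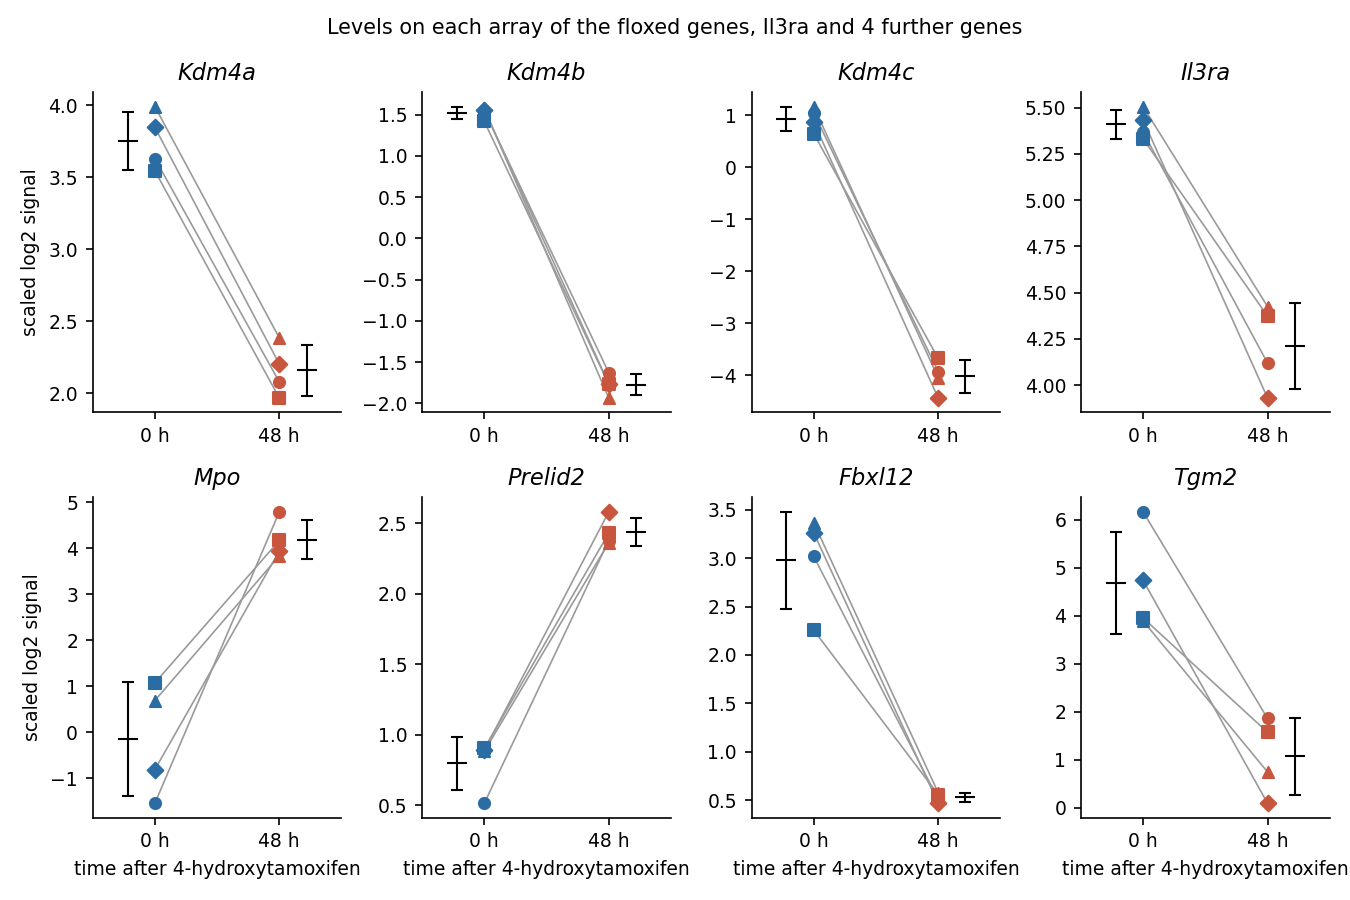
Scaled log2 signal of 8 genes on each of the 4 arrays at 0 h (blue) and the 4 at 48 h (red), with a grey line joining each pair, 1 marker shape per pair, and the mean ± SD in black. The vertical axes differ by panel, and in every panel the 2 groups do not overlap, with Kdm4c between 0.65 and 1.17 at 0 h and between -4.43 and -3.67 at 48 h.

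A total of 25079 genes and unnamed transcripts had a probe that 3 or more of the 11 arrays read well above background. Of these, 4657 were called changed at a limma adjusted p under 0.05, which is 18.6% of them. The calls divided into 2644 higher at 48 h (10.5%) and 2013 lower (8.03%). Counts of list members given below are to be set beside these shares of all features. In 5990 (23.9%) the 4 arrays of 1 time lay wholly on 1 side of the other 4, 3524 (14.1%) above and 2466 (9.83%) below, and 4550 of the 4657 calls had 1 sign in all 4 pairs. Most changes were small: 904 calls reached 2-fold, 599 up and 305 down. The balance turned at larger sizes, with 38 rises and 67 falls of at least 4-fold and 4 rises and 26 falls of at least 8-fold.

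The count of rises depended on how arrays were put on 1 scale. The median difference over all features was 0.12 with the 75th percentile and -0.10 when arrays were centred on their medians, and centring on the median left 424 higher and 1931 lower calls, against 1849 and 2202 after quantile normalization. Every one of those 424 was among the 2644, while 1655 of the 2013 falls were called again. Single arrays mattered too: leaving out array 4 of 48 h gave 2447 calls (1392 higher, 1055 lower), and leaving out array 1, 3 or 4 of 0 h or array 1 of 48 h gave 2947, 2780, 2769 and 2785. In all, 1166 rises and 936 falls were called whichever array was left out. With the pair number as a block among the 8 arrays alone 2770 features were called, and with the block in the fit of 11 arrays 5368. Across the settings, 157 of the genes named in the text were followed. Of these, 113 kept their direction and their side of the threshold in every setting that held them. Genes that never passed the test, such as Phgdh and S100a8, count among the 113. The setting that required signal above background on each of the 8 arrays held only 140 of the 157.

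**Figure D2:**
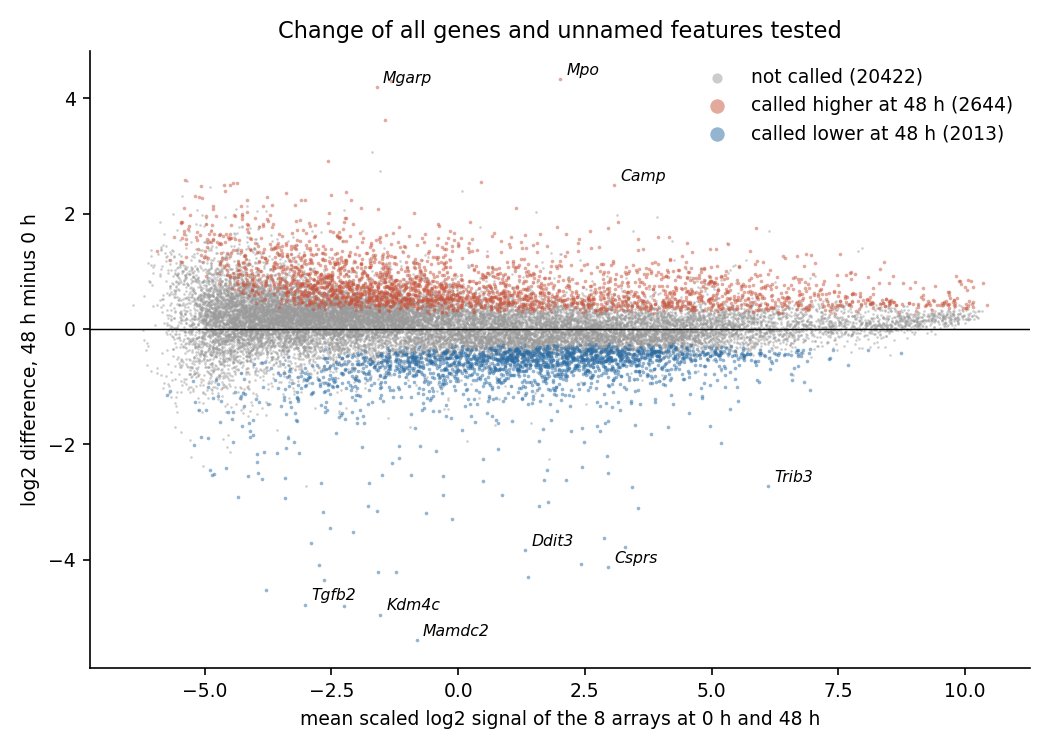
Log2 difference, 48 h minus 0 h, of 25079 features (vertical axis) against their mean scaled log2 signal over the 8 arrays (horizontal axis). Red points are the 2644 called higher, blue the 2013 called lower and grey those not called, and the deepest falls lie below -4 while 4 of the called rises pass 3.

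Mpo, the myeloperoxidase of primary granules, had the largest rise of all features tested. It read -1.55, 1.07, 0.69 and -0.81 at 0 h and 4.79, 4.17, 3.84 and 3.94 at 48 h, a difference of 4.33 ± 0.52 or 20.2-fold (limma adjusted p = 0.00199). The 0 h arrays spread over 2.62 units, and the nearest arrays of the 2 groups were 2.76 units apart. Mgarp, a mitochondrial outer membrane protein, read -3.70, -1.46, -4.50 and -5.13 and then 0.45, 1.61, -0.04 and -0.08, and rose by 4.18 ± 0.74 from a level that was well above background on only 2 of the 0 h arrays. Fxyd4, a small regulator of the sodium pump, read -3.90, -2.87, -2.76 and -3.52 at 0 h and -0.41, 1.504, 0.24 and 0.12 at 48 h, a rise of 12.3-fold. Camp, the cathelicidin of secondary granules, read 2.06, 3.09, 1.11 and 1.03 at 0 h and 4.95, 4.93, 3.25 and 4.15 at 48 h, and rose by 2.50 ± 0.56. Array 2 of 0 h was the highest of its group for Mpo, Mgarp and Camp alike.

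Other rises were tighter between arrays. Prelid2, a member of a family of mitochondrial lipid transfer proteins, had the smallest adjusted p of all rises: it read 0.52, 0.90, 0.88 and 0.89 at 0 h and 2.37, 2.43, 2.36 and 2.58 at 48 h, a rise of 1.64 ± 0.12 (limma adjusted p = 0.000441). Cbr3, a carbonyl reductase, read -0.93, -0.47, -1.13 and -1.097 and then 0.73, 0.67, 0.76 and 0.85, a rise of 1.66 ± 0.14. Glod5, a protein with a glyoxalase domain, rose by 2.55 ± 0.22, from between -1.17 and -0.40 to between 1.30 and 2.13. Tnfsf9, the ligand of the co-stimulatory receptor 4-1BB, rose by 1.48 ± 0.19. Among long non-coding RNAs, Neat1, the scaffold of nuclear paraspeckles, read -0.97, -0.77, -1.01 and -0.62 at 0 h and 0.63, 0.58, 0.38 and 0.78 at 48 h, and rose by 1.43 ± 0.14. Kcnq1ot1, an imprinted antisense RNA that silences its neighbours in cis, rose by 1.82 ± 0.31. The nearest arrays of the 2 groups were 1.46 units apart for Prelid2, 1.14 for Cbr3 and 1.70 for Glod5.

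Some genes called higher were well above background on no 0 h array. There were 616 such features, which passed the filter only through the later arrays, so the number called among them is no result. Clec4a2, a C-type lectin of myeloid cells, was above background on all 4 arrays at 48 h and was at least 2.63-fold higher there, where the bound sets its 48 h mean against the lowest signal counted as above background at 0 h. By the same measure Rhox5, a homeobox gene of the reproductive tract, was at least 2.47-fold higher, Dppa5a, a gene of pluripotent cells, at least 2.42-fold and the odorant receptor gene Olfr339 at least 2.37-fold. Cpa6, a carboxypeptidase, was above background on 2 of the 48 h arrays and on none at 0 h, and was called higher as well. Of 29 germline genes listed, 10 were tested, 4 rose and 0 fell, where 10.5% of all features were called higher. Rhox5 is among them and passed the filter only through the later arrays, so this count is no result either. The 4 rises were 2 when array 3 or 4 of 0 h, array 1, 2 or 3 of 48 h or any 96 h array was left out, with 1 fall without array 3 of 0 h.

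Falls were deeper than rises. Mamdc2, an extracellular matrix proteoglycan, read 2.87, 0.53, 1.80 and 2.29 at 0 h and -3.99, -3.91, -2.18 and -3.97 at 48 h, a fall of 5.39 ± 0.84 (limma adjusted p = 0.00426). Csprs, a gene of a multicopy cluster related to Sp100 whose copies a probe may not separate, fell from 5.23, 4.40, 5.05 and 5.36 to 0.78, 1.81, 0.79 and 0.15, which is 17.5-fold. Tgfb2, a ligand of the TGF-beta family, read 0.84, -0.74, -1.15 and -1.49 at 0 h, was above background on no array at 48 h and was at least 11.7-fold lower. The odorant receptor gene Olfr1362 was likewise above background on no 48 h array and at least 6.23-fold lower. Tgm2, a transglutaminase that cross-links proteins, read 6.17, 3.96, 3.89 and 4.74 and then 1.86, 1.57, 0.74 and 0.09, a fall of 3.62 ± 0.56. These genes varied between arrays, with a spread at 0 h of 2.34 units for Mamdc2, 2.33 for Tgfb2 and 2.27 for Tgm2, and in none did the 2 groups overlap.

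Further deep falls were in genes of varied function. Col4a1, a collagen of basement membranes, fell by 4.21 ± 0.80, Kcnma1, a calcium-activated potassium channel, by 4.10 ± 0.59 and Fcgr1, the high-affinity receptor for immunoglobulin G, by 3.71 ± 0.67, with 3, 1 and 1 of the 48 h arrays above background. A second Kcnma1 probe differed by only -0.66. Thbs1, a matrix glycoprotein, differed by -4.30 ± 1.15 (limma adjusted p = 0.029), a call that was lost without the filter on dim probes and when array 1, 3 or 4 of 0 h or array 3 or 4 of 48 h was left out. Its difference was -4.66 to -3.87 with 1 array left out. Gm7609 fell by 4.21 ± 0.58, with 2 of the 48 h arrays above background, and Akr1b7, an aldo-keto reductase, by 3.19 ± 0.52. Ptger2, a prostaglandin receptor, fell by 3.18 ± 0.49, with 1 of the 48 h arrays above background, and Acot2, a mitochondrial acyl-CoA thioesterase, by 3.06 ± 0.53. Cox6a2, the heart and muscle form of a cytochrome oxidase subunit, read 5.23, 4.26, 4.68 and 5.02 at 0 h and 2.60, 2.01, 2.04 and 1.59 at 48 h, a fall of 2.74 ± 0.36.

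Of 24 listed genes of extracellular matrix and TGF-beta signalling that were tested, 2 were called higher and 4 lower, beside a median of 0.17. Calls were thus 25% of the list, against 18.6% of all features. The 4 lower genes were Mamdc2, Tgfb2, Thbs1 and Col4a1. All are among the deep falls given above. The list was chosen with earlier results of these data known, so its share is no result. The 2 rises became 1 without array 3 of 0 h or array 1 or 4 of 48 h.

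Some of the falls with the smallest limma p-values formed another group. Tspyl4, a relative of the testis-specific nucleosome assembly proteins, read 0.04, -0.03, 0.67 and 0.69 at 0 h and -2.35, -2.13, -2.04 and -2.24 at 48 h, a fall of 2.53 ± 0.20 (limma adjusted p = 0.000565). Fbxl12, the substrate receptor of an SCF ubiquitin ligase, read 3.02, 2.26, 3.37 and 3.26 and then 0.51, 0.56, 0.58 and 0.47, a fall of 2.44 ± 0.23. The 4 arrays at 48 h lay within 0.11 units of one another and the 4 at 0 h within 1.11, with array 2 the lowest of these. P2rx3, an ATP-gated channel, fell by 1.94 ± 0.17, Tsc22d3, a leucine zipper protein induced by glucocorticoids, by 1.34 ± 0.12, Uba3, a subunit of the NEDD8-activating enzyme, by 1.24 ± 0.11, and Arhgef3, an exchange factor of small GTPases, by 1.05 ± 0.11. Gtpbp2, a GTP-binding protein that takes part in the rescue of stalled ribosomes, fell by 2.08 ± 0.21.

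Genes of the amino acid response were called lower in large part, and none was called higher. ATF4 is a transcription factor whose translation goes up when amino acids run short or proteins misfold. It raises genes that make, import and charge amino acids, along with the stress factors Ddit3 and Trib3, and in their promoters it binds with a C/EBP partner to a composite element, in whose common form the letters TGATGNAA, or their complement, occur. Sequences of 60 bases around this motif are shown for 7 of the genes that fell, to let the element be compared between them. They are from RefSeq promoters of GRCm38.p6, read 5′ to 3′ on the strand of the gene, and capitals mark the match.
Nupr1, chr7:126625547-126625606, minus strand: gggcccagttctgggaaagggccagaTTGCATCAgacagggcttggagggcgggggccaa
Atf3, chr1:191183410-191183469, minus strand: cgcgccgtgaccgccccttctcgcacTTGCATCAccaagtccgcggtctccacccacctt
Slc7a7, chr14:54418052-54418111, minus strand: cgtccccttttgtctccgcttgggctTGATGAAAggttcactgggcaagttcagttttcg
Vldlr, chr19:27216794-27216853, plus strand: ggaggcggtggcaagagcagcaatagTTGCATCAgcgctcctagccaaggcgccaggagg
Chac1, chr2:119351023-119351082, plus strand: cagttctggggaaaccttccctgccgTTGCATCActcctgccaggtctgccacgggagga
Herpud1, chr8:94386291-94386350, plus strand: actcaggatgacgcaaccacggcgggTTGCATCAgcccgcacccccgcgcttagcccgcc
Aars, chr8:111033704-111033763, plus strand: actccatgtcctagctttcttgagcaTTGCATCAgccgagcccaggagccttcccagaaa
The motif, searched on both strands over the 250 bases before each start, was in 3.45% of 32851 promoters. Counted by gene, as for the lists, a match in any promoter was found in 3.91% of 27025 genes. It was in 6 of 16 called genes of the ATF4 list that have a promoter entry and in 1 of 7 others, in 3 of 8 called tRNA synthetase genes and 0 of 4 others, and in 1 of 8 called amino acid transporters and 1 of 7 others. A match is a description of these letters and not evidence of binding, and no match says nothing about it.

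Of the 24 tested genes on the list of ATF4 targets and the integrated stress response, 18 fell, 0 rose and 6 did not pass the test, with a median of -0.90 where all features had 0.12. The pair medians were -0.66, -0.92, -0.96 and -0.99. Ddit3, which encodes the stress factor CHOP, read 3.35, 2.87, 3.23 and 3.51 at 0 h and -0.24, -0.72, -0.75 and -0.63 at 48 h, and fell 14.2-fold (limma adjusted p = 0.00199). Nupr1, a small chromatin protein of the stress response, read 4.87, 4.44, 5.54 and 5.52 and then 2.23, 2.10, 1.86 and 1.78, a fall of 8.57-fold. Trib3, a pseudokinase, read 7.41, 6.97, 7.73 and 7.75 and then 5.45, 4.46, 4.67 and 4.43, a fall of 6.57-fold. The nearest arrays of the 2 groups were 3.11, 2.20 and 1.52 units apart in these 3 genes, and array 2 was the lowest of the untreated arrays in each.

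Enzymes and feedback regulators on the list fell as well. Cth, the last enzyme of cysteine synthesis, fell by 2.62 ± 0.29, Aldh1l2, a mitochondrial folate enzyme, by 2.24 ± 0.28, and Ppp1r15a, which restores translation by dephosphorylating eIF2, by 1.77 ± 0.29. Vldlr, a lipoprotein receptor, fell by 1.27 ± 0.19, Chac1, which degrades glutathione, by 1.21 ± 0.26, Cebpg, a dimer partner of ATF4, by 1.20 ± 0.14, and Gpt2, an alanine transaminase, by 1.15 ± 0.13. Herpud1, a factor in the clearance of misfolded proteins, fell by 0.94 ± 0.15, Aldh18a1, an enzyme of proline synthesis, by 0.86 ± 0.11, and Sesn2, a leucine sensor, by 0.63 ± 0.11. Atf3, a related transcription factor, differed by -2.03 ± 0.55 (limma adjusted p = 0.0306), a call lost without array 1, 3 or 4 of 0 h, without array 3 or 4 of 48 h, and without the filter on dim probes. Asns, asparagine synthetase, differed by -0.62 ± 0.15, called in the full fit and lost without array 3 of 0 h, without array 4 of 48 h and with the block among 8 arrays. Psph, the last enzyme of serine synthesis, was called at -0.71 and lost the call without array 2, 3 or 4 of 0 h or array 1, 2 or 4 of 48 h, without the filter on dim probes, with the 8 arrays alone and with either block. Cebpb, a myeloid transcription factor of the C/EBP family, was called at -0.42 and lost the call without array 3 or 4 of 0 h or array 4 of 48 h, without the filter on dim probes and with the block among 8 arrays.

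Atf4 itself was close to the threshold. Its messenger RNA read 8.82, 8.91, 9.13 and 8.94 at 0 h and 8.60, 8.40, 8.74 and 8.40 at 48 h, a difference of -0.41 ± 0.12 (limma adjusted p = 0.0355). The groups did not overlap, yet the call was lost when array 3 or 4 of 0 h or array 1, 2 or 4 of 48 h was left out, with median centring, without the filter on dim probes, with the slide row as a term and with the 8 arrays alone, blocked or not. Phgdh and Psat1, the first enzymes of serine synthesis, did not pass the test, at -0.24 and -0.20 with limma adjusted p of 0.375 and 0.188. Psat1 passed after quantile normalization, with and without normexp. Leaving out 1 array at a time gave 13 to 18 falls on the list, median centring 17 and the block among 8 arrays 14.

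Amino acid transporters and charging enzymes moved the same way. Of 19 tested transporters, 11 fell and 0 rose, with a median of -0.62. Slc7a3, a carrier of arginine and lysine, read 3.11, 2.86, 3.51 and 3.65 at 0 h and 1.06, -0.31, 0.44 and -0.07 at 48 h, a fall of 8.02-fold. Slc6a9, a glycine carrier, fell by 1.82 ± 0.22 and Slc7a7, a light chain of the cationic amino acid exchanger, by 1.71 ± 0.19. Slc3a2, the heavy chain that brings such exchangers to the membrane, fell by 0.93 ± 0.15, and Slc7a5, its leucine-carrying partner, by 0.85 ± 0.12. Slc38a2, a sodium-coupled carrier of neutral amino acids, fell by 0.88 ± 0.09. Slc7a11, the cystine importer, differed by -0.63 ± 0.27 without passing the test (limma adjusted p = 0.131), and passed it with median centring and after normexp.

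Of 19 cytosolic tRNA synthetases tested, 12 fell and 0 rose, with a median of -0.53. Eprs, which charges tRNA with glutamate and proline, fell by 0.95 ± 0.12, and Wars, the tryptophan enzyme, by 0.88 ± 0.17. Aars, the alanine enzyme, read 5.74, 5.59, 5.81 and 5.81 at 0 h and 4.93, 5.07, 5.004 and 4.97 at 48 h, a fall of 0.74 ± 0.09. The arrays of Aars spread over 0.22 units at 0 h and 0.14 at 48 h, less than the gap of 0.52 between the groups. Gars, the glycine enzyme, was called at -0.36 and lost the call without any 1 of the 4 arrays of 0 h, array 1, 2 or 4 of 48 h or array 2 of 96 h, with median centring, without the filter on dim probes, with the slide row as a term and with the 8 arrays alone, blocked or not. Leaving out 1 array at a time gave 11 to 12 falls among synthetases and 11 to 13 among transporters. Fgf21, a secreted stress hormone that lies outside these lists, fell by 2.92 ± 0.60 and was above background on 1 array at 48 h.

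**Figure D3:**
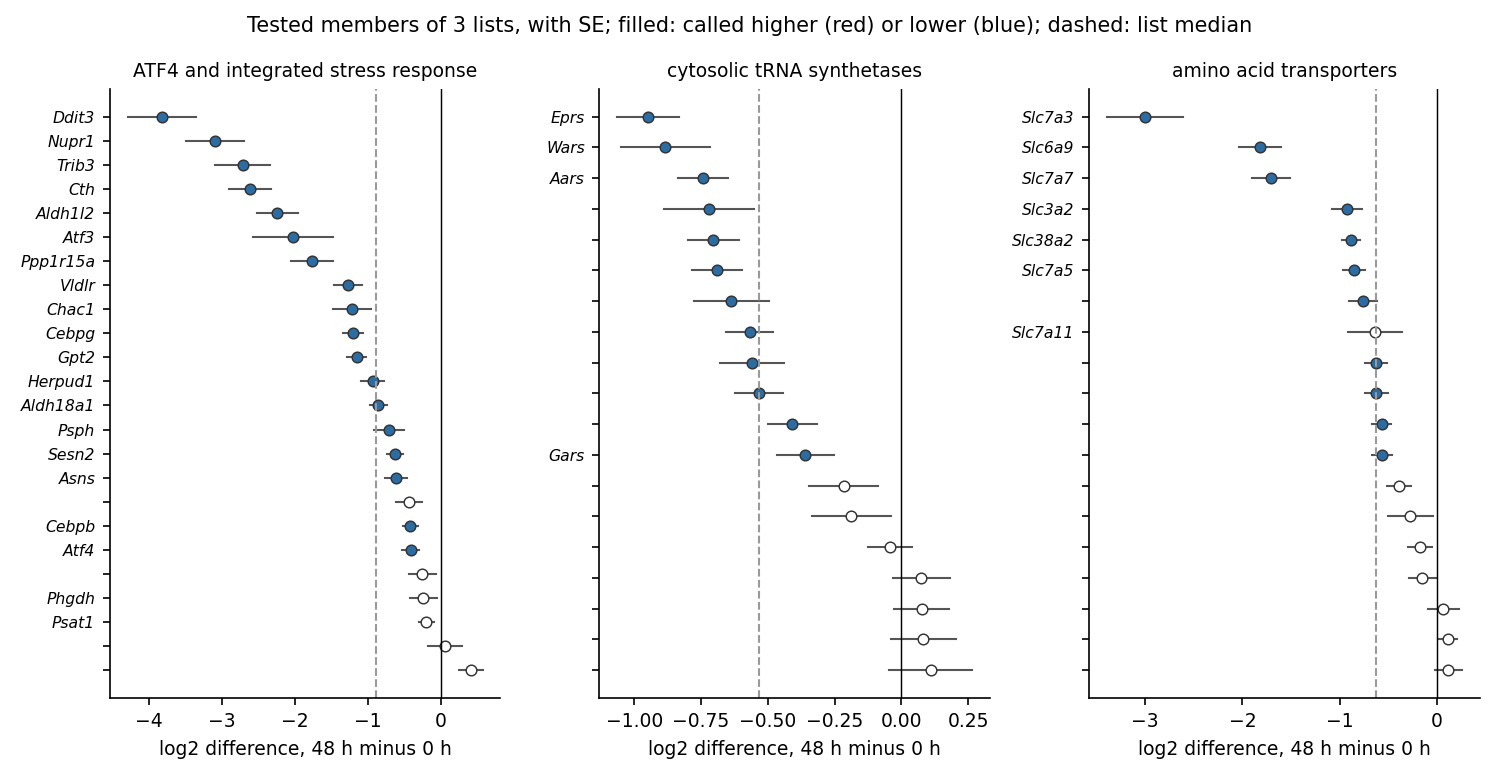
Log2 difference, 48 h minus 0 h, with its standard error, for the tested members of the ATF4, tRNA synthetase and amino acid transporter lists (1 panel each, with the genes described in the text named), filled where called at a limma adjusted p under 0.05. The dashed lines are the list medians, -0.90, -0.53 and -0.62, and no filled point lies above 0.

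Some genes driven by hypoxia-inducible factor (HIF), and most enzymes of glycolysis, were called higher at 48 h. HIF is stabilised when prolyl hydroxylases lack oxygen or their cofactors, and its heterodimer binds sites with the core ACGTG. This core is shown for 6 genes that rose, in the same RefSeq promoters, with the match in capitals on either strand.
Ankrd37, chr8:45999851-45999910, minus strand: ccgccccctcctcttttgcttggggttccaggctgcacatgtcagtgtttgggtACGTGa
Car9, chr4:43506966-43507025, plus strand: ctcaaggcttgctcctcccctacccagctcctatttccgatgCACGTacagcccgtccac
Egln3, chr12:54204065-54204124, minus strand: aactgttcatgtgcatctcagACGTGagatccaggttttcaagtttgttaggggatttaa
Bnip3, chr7:138909581-138909640, minus strand: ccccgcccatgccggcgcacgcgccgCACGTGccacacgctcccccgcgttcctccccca
Fam162a, chr16:36071610-36071669, minus strand: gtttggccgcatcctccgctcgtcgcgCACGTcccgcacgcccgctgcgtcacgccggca
Pgk1, chrX:106186942-106187001, plus strand: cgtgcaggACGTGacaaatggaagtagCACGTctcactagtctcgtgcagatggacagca
The core, which in Bnip3 is 2 overlapping matches on opposite strands, was in 16.6% of all promoters and, counted by gene, in 18.5% of genes. It was in 7 of 11 called HIF targets and in 7 of 9 others, and in 7 of 14 called glycolysis genes and 1 of 4 others.

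Of 22 HIF targets tested, 10 rose, 3 fell and 9 did not pass the test, with a median of 0.41. Ankrd37, an ankyrin repeat protein, read 0.49, 0.41, -0.18 and -0.32 at 0 h and 2.36, 2.29, 2.34 and 1.77 at 48 h, a rise of 4.25-fold (limma adjusted p = 0.00145). Car9, a carbonic anhydrase of the cell surface, read 1.97, 2.32, 2.09 and 1.97 and then 3.59, 4.68, 3.55 and 3.51, a rise of 3.35-fold. The nearest arrays of the 2 groups were 1.29 units apart for Ankrd37 and 1.19 for Car9, with array 2 of 48 h the highest for Car9. Egln3, one of the prolyl hydroxylases that mark HIF for destruction, rose by 1.36 ± 0.13, Bnip3, a mitophagy receptor, by 1.34 ± 0.13, and Fam162a, a mitochondrial protein, by 1.12 ± 0.10. Mif, a cytokine, and Pdk1, which keeps pyruvate out of the citric acid cycle, were called at 0.82 and 0.58 but not with median centring. Against the list, Ndrg1, a stress-induced gene, fell by 1.13 ± 0.25, and Vegfa, the angiogenic factor, was called at -0.67 ± 0.11, although its probes ranged from -0.67 to 0.42 and their mean was not called. Pfkfb3, which makes an activator of glycolysis, was called at -0.44 and lost the call without any 1 array other than array 2 of 0 h, with quantile normalization, with either block and in most other settings.

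Of 18 glycolytic enzymes, 12 rose and 2 fell, with a median of 0.55. Aldoc, an aldolase, rose by 1.39 ± 0.26, Tpi1, triose phosphate isomerase, by 1.095 ± 0.21, and Pgk1, phosphoglycerate kinase, by 0.95 ± 0.11. Pgk1 read 7.28, 7.48, 7.39 and 7.27 at 0 h and 8.47, 8.48, 8.17 and 8.11 at 48 h, so the lowest treated array was 0.63 units above the highest untreated one. Pkm, pyruvate kinase, Ldha, lactate dehydrogenase, and Gapdh were called at 0.81, 0.75 and 0.45, and none of these 3 calls held with median centring. That of Gapdh was also lost with quantile normalization and normexp, with the block among 8 arrays, and in the authors' deposited table. Hk3, a hexokinase of myeloid cells, and Pfkp, the platelet form of phosphofructokinase, were called lower at -0.54 and -0.35, and both calls were lost with the block among 8 arrays. With median centring 5 HIF targets and 3 glycolytic enzymes were called higher.

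Genes of cholesterol synthesis and uptake, which SREBP2 turns on when sterols are low, were called higher in numbers that depended on which arrays were used. Of 25 tested, 18 were called higher and 0 lower, with a median of 0.75. Without array 1, 3 or 4 of 0 h the count was 6, 8 and 6, without array 1, 2, 3 or 4 of 48 h 8, 11, 9 and 7, with median centring 2, and with the block among 8 arrays 4. The pair medians were 0.92, 0.14, 0.84 and 1.11, with pair 2 apart from the others, and the list median was 0.64 to 0.98 with 1 array left out. Hmgcs1, an early enzyme of the route, kept its call throughout: it read 3.64, 3.88, 3.44 and 3.42 at 0 h and 4.47, 4.53, 4.55 and 4.42 at 48 h, a rise of 0.90 ± 0.11 (limma adjusted p = 0.00205). Acat2, which joins acetyl-CoA units at the start of the route, rose by 1.34 ± 0.25 and was the other gene described here that did. The Hmgcs1 promoter holds a letter pattern of the sterol element, TCACNCCAC, and is shown with that match in capitals. The pattern was in 1.05% of all promoters and, counted by gene, in 1.225% of genes and 1 of 12 called genes of the list.
Hmgcs1, chr13:119690189-119690248, plus strand: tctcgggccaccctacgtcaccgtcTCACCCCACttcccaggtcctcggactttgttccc

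Other sterol genes differed in how firmly they were called. Msmo1, a sterol demethylase, rose by 0.998 ± 0.17 and Sqle, squalene epoxidase, by 0.44 ± 0.09, neither of which held with median centring, nor that of Sqle with the block among 8 arrays. Fdft1, squalene synthase, read 1.14, 2.62, 1.28 and 0.87 at 0 h and 2.87, 2.96, 2.55 and 2.84 at 48 h, and its call at 1.33 was lost without array 1, 3 or 4 of 0 h or array 1 or 4 of 48 h, with median centring and with the block among 8 arrays. Fdps, farnesyl diphosphate synthase, read 5.29, 7.40, 6.74 and 5.87 and then 7.52, 7.54, 7.66 and 7.72. In both genes array 2 of 0 h stood near the treated arrays, and the call of Fdps at 1.28 was lost without any 1 array other than array 2 of 0 h and array 1 of 96 h, and also with median centring, with quantile normalization, without the filter on dim probes and with the 8 arrays alone, blocked or not.

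Several genes that store or export sterol, or limit its uptake, were called lower. Soat2, which esterifies cholesterol for storage, read 3.01, 2.31, 3.62 and 3.59 at 0 h and 0.27, -0.07, 0.05 and 0.03 at 48 h, a fall of 8.37-fold with no overlap (limma adjusted p = 0.00181). Mylip, a ubiquitin ligase that limits sterol uptake, fell by 0.85 ± 0.15. Abcg1, a sterol exporter, was called at -1.21 ± 0.29 and lost the call without array 4 of 0 h or array 4 of 48 h. Of 14 targets of the sterol sensor LXR, 1 was called higher and 3 lower, which is 28.6% against 18.6% of all features. The rise, Apoe, was lost without array 3 or 4 of 0 h, any array of 48 h or array 2 of 96 h, and with median centring, quantile normalization and normexp. The falls were 1 without array 4 of 48 h. Of 18 genes of fatty acid synthesis, 1 was called higher and 3 lower, which is 22.2% against 18.6% of all features. The rise, Scd2, a desaturase called at 0.77, was lost whichever array was left out apart from array 2 of 0 h, with the block among 8 arrays, with median centring, quantile normalization and normexp, and in the authors' deposited table. Without array 2 of 0 h 7 were higher. Acsl3, an acyl-CoA synthetase, fell by 0.61 ± 0.13, and the 3 falls were 1 without array 3 or 4 of 0 h or array 4 of 48 h.

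**Figure D4:**
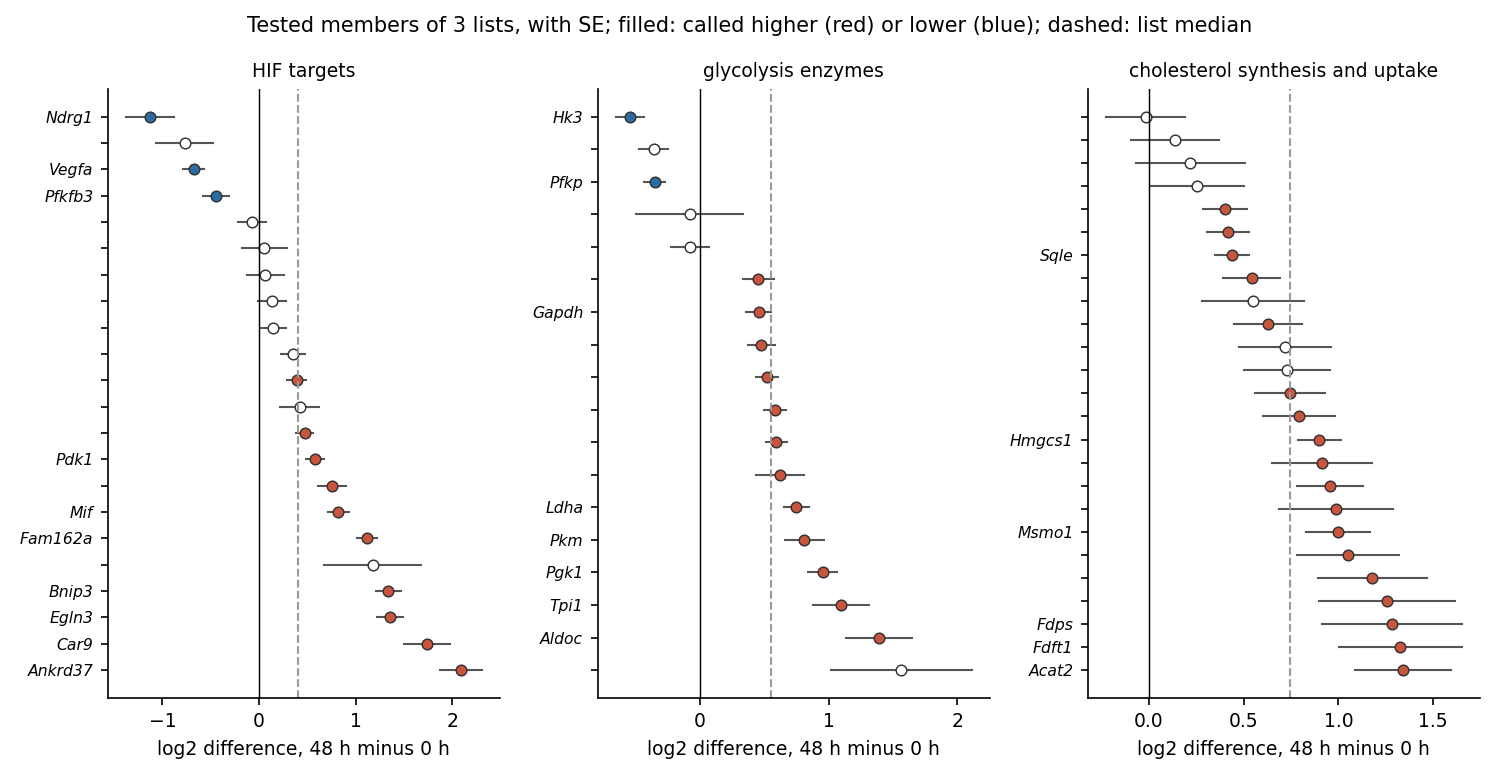
Log2 difference, 48 h minus 0 h, with its standard error, for the tested members of the HIF, glycolysis and cholesterol lists (1 panel each, with the genes described in the text named), filled where called at a limma adjusted p under 0.05. The dashed lines are the list medians of 0.41, 0.55 and 0.75, and Ankrd37 at 2.09 is the highest HIF target.

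The alpha chain of the interleukin 3 receptor fell, and so did part of the JAK-STAT pathway through which it signals. Il3ra, which encodes that chain and so binds the cytokine in the medium, read 5.37, 5.33, 5.51 and 5.43 at 0 h and 4.12, 4.37, 4.42 and 3.93 at 48 h. It fell by 1.20 ± 0.16, to 43.6% of its level (limma adjusted p = 0.00243), and the nearest arrays of the 2 groups were 0.91 units apart. Of 30 cytokine and growth factor receptors, 3 rose and 2 fell, which is 16.7% against 18.6% of all features, with a median of -0.05, and 5 were lower without array 2 of 0 h. Il2rg, the common gamma chain, fell by 0.57 ± 0.12, and Csf3r, the G-CSF receptor of granulocytes, was called higher at 0.66 ± 0.12, which did not hold with median centring.

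Of 28 genes of JAK-STAT signalling and its feedback, 10 were called lower and 0 higher, with a median of -0.32. Stat4 fell by 1.09 ± 0.21, Jak2, the kinase bound to the shared receptor chain, by 0.64 ± 0.11, and Pim3, a survival kinase, by 0.60 ± 0.13. Socs2, a feedback inhibitor that STAT5 induces, read 0.87, 0.96, 1.01 and 1.07 at 0 h and 0.10, -0.11, -0.04 and 0.01 at 48 h, a fall of 0.99 ± 0.11. All 4 treated arrays of Socs2 lay near 0 and all 4 untreated arrays near 1. Stat5b and Cish, another STAT5 target, were called at -0.37 and -0.35 and lost the call in most settings. The count was 5 without array 1, 3 or 4 of 0 h, 6 without array 1 of 48 h, 4 without array 4 of 48 h and 5 with the block among 8 arrays.

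Granule genes other than Mpo and Camp were less clear. Of 17 primary granule genes, 4 rose and 0 fell, which is 23.5% called against 18.6% of all features. Their median was 0.45, and 9 rose without array 2 of 0 h. Ms4a3, a membrane protein of granulocyte-monocyte progenitors, read 4.34, 6.35, 5.18 and 4.12 at 0 h and 7.06, 6.97, 6.62 and 6.31 at 48 h, and its call at 1.74 ± 0.42 was lost without array 1 or 4 of 0 h or array 1 of 48 h. Plac8, a myeloid gene, was called at 0.92 ± 0.15, though not with median centring. Elane, neutrophil elastase, differed by 0.91 ± 0.40 (limma adjusted p = 0.135) and Ctsg, cathepsin G, by 0.22 ± 0.10 (limma adjusted p = 0.16). Elane passed without array 2 of 0 h and with the block among 11 arrays. Mpo thus differed 20.2-fold where Elane and Ctsg, of the same granules, did not pass the test.

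Of 21 genes of secondary and tertiary granules, 4 rose and 0 fell, with a median of 0.94. The share called in either direction was thus close to the 18.6% of all features. The untreated arrays differed among themselves. With each gene taken relative to its own mean over the 8 arrays, the array medians of this list were 0.59, -0.06, -1.31 and -1.23 at 0 h and 0.82, 0.89, -0.19 and -0.01 at 48 h, so arrays 1 and 2 were the higher ones at both times. S100a8, a calcium-binding alarmin, read 7.05, 5.54, 3.96 and 3.76 at 0 h and 7.17, 6.89, 5.46 and 5.59 at 48 h and did not pass the test (limma adjusted p = 0.255). Pglyrp1, which binds bacterial peptidoglycan, rose by 0.97 ± 0.19. Itgam, the integrin CD11b of mature myeloid cells, was called at 0.74 ± 0.11, a call lost with median centring and with the mean of its probes. Of 23 monocyte and macrophage genes, 1 rose and 1 fell, which is 8.70% against 18.6% of all features. The rise, Apoe, a lipid carrier, was lost without array 3 or 4 of 0 h, any array of 48 h or array 2 of 96 h and with median centring, quantile normalization and normexp, and 2 rose without array 1 of 0 h. The fall was that of Fcgr1.

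Some genes that MLL fusions are known to keep active were called lower. Of 33 such targets and stem cell factors, 7 fell and 1 rose, with a median of -0.34. Calls were thus 24.2% of the list, against 18.6% of all features. Meis1, the homeobox cofactor, read 5.26, 4.96, 5.22 and 5.21 at 0 h and 4.28, 4.60, 4.65 and 4.56 at 48 h, a fall of 0.64 ± 0.11 (limma adjusted p = 0.00678). The highest treated array was 0.31 units under the lowest untreated one. Hoxa9, its homeobox partner, was called at -0.62 ± 0.14 and lost the call without array 4 of 48 h, with the mean of its probes and with the block among 8 arrays. Bmi1, a Polycomb gene of self-renewal, fell by 0.75 ± 0.17. Without array 3 of 0 h 4 members were lower, without array 4 of 48 h 2, with the block among 8 arrays 2 and with the block among 11 arrays 13, while the 1 rise was 0 without array 1 or 4 of 0 h and 2 without any 1 array of 96 h. Myc was called at -0.73 ± 0.19, with overlapping groups, and was lost without any 1 array of the 8 other than array 2 of 0 h and array 3 of 48 h, without the filter on dim probes and with the 8 arrays alone. Mlx, a partner in the wider MYC network, fell by 0.70 ± 0.13.

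Changed genes of the BCL2 family were mostly lower, and genes of the cell cycle were rarely called. Of 18 BCL2 family genes, 7 fell and 1 rose, with a median of -0.39. The falls took in both sides of the family: Bcl2a1d, a survival gene of a multicopy cluster whose copies may share the probe, was called at -1.69 ± 0.41 and Bcl2l1, which encodes BCL-XL, at -0.52 ± 0.13, while Bbc3, the death-promoting PUMA, fell by 0.78 ± 0.18 and Bid by 0.62 ± 0.12. Bok, a death-promoting member of the endoplasmic reticulum, read 0.02, 0.10, 0.17 and -0.02 at 0 h and 1.08, 0.69, 0.99 and 1.17 at 48 h, and rose by 0.92 ± 0.11. The untreated arrays of Bok lay within 0.19 units, and the lowest treated array was 0.52 units above them. The 7 falls were 4 without array 1 of 0 h and 3 without array 4 of 0 h or array 4 of 48 h, and 3 with the block among 8 arrays, which ended the calls of Bcl2l1 and Bid. Bcl2a1d and Bcl2l1 were both lost without array 1 or 4 of 0 h or array 4 of 48 h, and Bcl2a1d also without array 3 of 0 h.

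Of 28 p53 targets, 7 fell and 2 rose, with a median of -0.22, which is 32.1% called against 18.6% of all features. Rrm2b, a ribonucleotide reductase subunit used in DNA repair, fell by 1.497 ± 0.22, and Phlda3, an inhibitor of AKT, was called higher at 1.001 ± 0.18, though not with median centring. The falls were 4 without array 1 of 0 h, 3 without array 4 of 0 h, array 1 or array 4 of 48 h, and 4 with the block among 8 arrays, and the rises were 1 without any single array except array 2 of 0 h and array 2 of 48 h. Of 34 genes of the G1/S step and DNA replication, 3 rose and 0 fell, which is 8.82% called. Over all features 10.5% were called higher and 8.03% lower. Fen1, the flap endonuclease, was called at 0.83 ± 0.17, a call lost with median centring. Those rises were 5 without array 2 of 0 h and 1 without array 1 of 48 h, and 1 gene was called lower without array 1 or 2 of 0 h or array 2 of 48 h. Rb1, the retinoblastoma brake on that step, fell by 0.72 ± 0.15. Of 32 genes of mitosis, 3 were called higher and 0 lower, which is 9.38% called against 18.6% of all features. The rises were 12 without array 2 of 0 h, 1 without array 3 of 0 h, array 2 of 48 h or array 2 of 96 h, and 0 without array 1 or 4 of 0 h or array 1, 3 or 4 of 48 h. The array medians of this mitosis list were -1.14, 0.40, 0.09 and -0.39 at 0 h and 0.20, 0.22, 0.34 and 0.22 at 48 h. The untreated arrays thus spread over more than 1 unit, and the treated arrays lay close together. Of 27 interferon-stimulated genes 0 were called by limma, 2 were lower and 0 higher at an unadjusted p under 0.05, and their array medians ran from -0.55 to 1.003 at 0 h.

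Chromatin genes other than the floxed 3 included a few that changed. Of 24 lysine demethylases tested, the floxed genes included, 6 fell and 0 rose, which is 25% against 18.6% of all features. Kdm4a, Kdm4b and Kdm4c, whose alleles were made to be deleted, are among the 6, so this share is no result. Kdm6b, which acts on lysine 27 of histone H3, read 2.32, 1.67, 1.99 and 2.21 at 0 h and 1.17, 1.20, 1.18 and 0.82 at 48 h, a fall of 0.95 ± 0.18, and Kdm5c was called at -0.30 and lost the call in most settings. Without array 2 of 0 h 1 demethylase was called higher. Of 29 writers and readers of H3K9 and H3K36 methylation, 2 were called higher and 3 lower, which is 17.2% against 18.6% of all features. Suv39h1, a methyltransferase for lysine 9, was called at 1.06 ± 0.23, though not with median centring, and Atf7ip, which stabilises the methyltransferase SETDB1, fell by 1.14 ± 0.12. Atf7ip read 2.57, 2.67, 2.51 and 2.25 at 0 h and 1.38, 1.48, 1.49 and 1.099 at 48 h, with a spread of 0.41 and 0.39 units within the groups and a gap of 0.76 between them. The 3 falls were 1 without array 1 or 3 of 0 h or array 1 or 4 of 48 h, and the 2 rises 1 without array 1 or 3 of 0 h or array 3 or 4 of 48 h.

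Of 27 Polycomb genes, 7 fell and 0 rose, with a median of -0.27, which is 25.9% called against 18.6% of all features. Pcgf1, a subunit of a variant PRC1 complex, read 0.26, 0.75, 0.74 and 0.39 at 0 h and -0.21, -0.29, -0.096 and -0.54 at 48 h, a fall of 0.82 ± 0.14. Its highest treated array lay below its lowest untreated one. Without array 2 of 0 h 11 members were lower and without array 4 of 0 h or array 4 of 48 h 4 were, and with the latter left out 1 was higher. Of 331 Zfp genes, a name given to many zinc finger proteins, 61 fell and 17 rose, with a median of -0.18, and the falls numbered 32 and 34 without array 3 or 4 of 0 h and 37 and 26 without array 1 or 4 of 48 h, over which rises were 11 without array 4 of 0 h and 10 without array 1 of 48 h. Calls thus made up 23.6% of the Zfp genes, against 18.6% of all features. Median centring left 48 lower and 0 higher, and the block among 8 arrays 32 lower and 11 higher.

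Host genes of small nucleolar RNAs, whose introns give rise to the RNAs that guide ribosomal RNA modification, were among the deep falls. Of 10 tested, 6 fell and 1 rose, with a median of -0.75. Snhg12 read 5.71, 3.21, 5.79 and 6.00 at 0 h and 1.36, 1.45, 1.55 and 1.25 at 48 h, a fall of 13.7-fold (limma adjusted p = 0.00335). Snhg1 read 4.17, 2.85, 4.88 and 4.94 and then 1.83, 1.56, 1.74 and 1.75, a fall of 5.62-fold. In both, array 2 of 0 h was by far the lowest of the untreated arrays and still above every treated one. Snhg5 fell by 2.26 ± 0.41. Snhg16 was called at -2.39 on its brightest probe, while a second probe of the gene was called at 0.89 in the other direction, so its direction is not settled. Snhg3 went the other way and rose by 1.05 ± 0.13. Leaving out 1 array at a time gave 4 to 7 falls on the list.

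The spliced RNAs of several such hosts are known to be degraded by nonsense-mediated decay, and of 13 genes of that pathway 5 were called lower and 0 higher, with a median of -0.34. Upf3b, a decay factor that joins exon junctions to the machinery, fell by 0.70 ± 0.15. The 5 falls were 3 without array 3 of 0 h, 2 without array 4 of 0 h or array 1 of 48 h and 1 without array 4 of 48 h. Of 54 translation initiation factors 12 were called lower and 1 higher, with a median of -0.11, which is 24.1% called against 18.6% of all features. Their median level at 0 h was 4.64, and of the 6270 brightest features 22.9% were called. Eif2b3, a subunit of the exchange factor on which the stress response acts, fell by 0.53 ± 0.12. Those 12 falls were 4 without array 3 of 0 h, 5 without array 4 of 0 h or array 1 or 2 of 48 h, and 3 without array 4 of 48 h, and the 1 rise was 2 without array 2 of 0 h or array 1 of 48 h.

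Iron, haem and respiratory genes were among the rises. Of 27 genes of haem synthesis and iron, 8 rose and 1 fell, with a median of 0.30. Slc40a1, the iron exporter ferroportin, read 0.49, 0.49, 0.62 and 0.38 at 0 h and 1.69, 1.90, 2.17 and 2.21 at 48 h, a rise of 2.83-fold (limma adjusted p = 0.00216). The nearest arrays of the 2 groups were 1.07 units apart. Hmox1, which breaks down haem, rose by 1.56 ± 0.27. Tfrc, the transferrin receptor for iron uptake, was called at 1.42 ± 0.28 and lost the call with the block among 8 arrays, and Alas1, the first enzyme of haem synthesis, was called at 0.49 ± 0.09 but not with median centring. Left-out arrays gave 7 to 11 rises, median centring 3 and the block among 8 arrays 5, and the 1 fall was absent without any 1 of the 8 arrays except array 2 of 0 h, where 3 fell, and array 3 of 48 h.

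Of 90 subunits and assembly genes of the respiratory chain, 19 rose and 2 fell, with a median of 0.19. Calls were thus 23.3% of the list, against 18.6% of all features and 22.9% of the 6270 brightest. The median level of the list at 0 h was 6.21, among those brightest features. Uqcrh, a subunit of complex III, read 6.29, 6.97, 6.54 and 6.09 at 0 h and 7.68, 7.58, 7.69 and 7.51 at 48 h, a rise of 1.14 ± 0.17, and Cox7a1, a subunit of cytochrome oxidase, rose by 1.26 ± 0.23. Every treated array was above every untreated one for Uqcrh, by at least 0.54 units. The fall of Cox6a2, given above, was the deepest on the list. Without array 2 of 0 h 30 were higher, without array 4 of 0 h or array 4 of 48 h 11, with median centring 2 and with the block among 8 arrays 10. The 2 falls were 1 without array 3 or 4 of 0 h or array 1, 2 or 4 of 48 h.

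Most tubulin genes were called higher, with the limit that the genes are near copies of one another and probes may read more than 1 of them. Of 16 alpha and beta tubulin genes, 12 rose and 0 fell, with a median of 0.95. Tubb4b read 6.46, 7.34, 6.98 and 6.78 at 0 h and 8.21, 8.04, 8.18 and 8.31 at 48 h, a rise of 1.29 ± 0.17 (limma adjusted p = 0.00255). Its treated arrays lay within 0.26 units, its untreated arrays within 0.88, and the groups 0.70 units apart. Tuba1a rose by 1.16 ± 0.19 and Tubb2b by 2.10 ± 0.45. Of 33 kinesins, motors that walk on microtubules, 0 rose and 4 fell, among them Kif21b, which fell by 0.83 ± 0.14. On the joint list of 59 tubulins, kinesins and related genes the 12 rises became 11 to 17 with 1 array left out and 6 with median centring. The tubulin set was drawn after its values were seen.

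Genes that fold and clear proteins in the endoplasmic reticulum divided. Of 20 chaperones and degradation factors, 4 rose and 1 fell, with a median of 0.21, which is 25% called against 18.6% of all features. Derl3, a channel component for misfolded proteins, rose by 1.78 ± 0.35, with 3 of the 0 h arrays above background. Calr, the calcium-binding chaperone calreticulin, was called at 1.02 ± 0.17, though not with median centring. Sel1l, the adaptor of the degradation ligase, fell by 1.06 ± 0.20. The single fall was 2 falls without array 2 of 0 h or array 3 of 48 h. The T cell marker genes Lck, a kinase, and Cd3d, a chain of the T cell receptor complex, were themselves called in opposite directions, at -1.28 ± 0.23 and 1.07 ± 0.12.

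**Figure D5:**
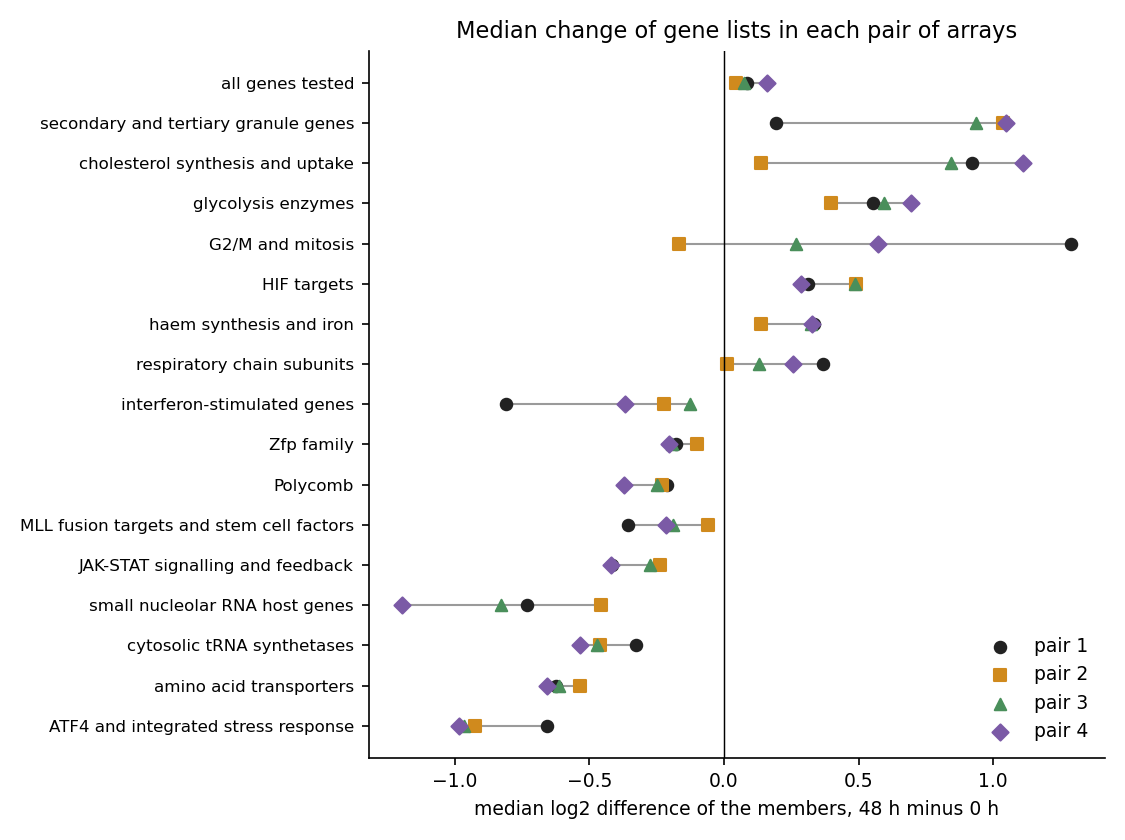
Median log2 difference, 48 h minus 0 h, of 16 gene lists and of all 25079 features in each of the 4 pairs of arrays. The ATF4 list lies between -0.99 and -0.66 in every pair, while the cholesterol list runs from 0.14 in pair 2 to 1.11 in pair 4.

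The split of calls between named and unnamed features depended on the scaling. With the 75th percentile, of 14996 features with a gene symbol, 1228 were higher and 1737 lower, with a median of 0.02. Of 10083 without one, 1416 were higher and 276 lower, with a median of 0.24, and the 3624 of these that were designed to genome intervals gave 431 higher and 68 lower. With median centring the counts were 175 higher and 1639 lower for named features and 249 and 292 for unnamed ones, and with the percentile over probes above background on all arrays 1729 and 1500, and 1894 and 225. Signal level moved with this: the 6270 dimmest features had 388 higher and 97 lower calls and a median of 0.24, and the 6270 brightest 774 and 661 and a median of 0.03. Among 445 long non-coding RNAs 35 were higher and 33 lower. The part of the signal level in the rise of unnamed features was not tested.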

How the data were processed

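RNA of MLL-AF9 L-GMP lines was read on 1-colour Agilent arrays (62976 spots, 59305 of them no controls). The deposited scanner files hold spot intensity values that Agilent Feature Extraction 11.0.1.1 had background-subtracted, per the file headers. The submitters' processing notes name limma without a version. The deposited series table holds log2 values with column medians of 6.17 to 6.19, and it correlated at 0.99998 or more with normexp background correction (offset 50) followed by quantile normalization of the same arrays, so its scale is log2 and it was used as an alternative.

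Here log2 processed signal less each array's 75th percentile over ControlType 0 spots was used, without outlier spots (125 to 194 of them on each of these 8 arrays, 0 saturated). Probes well above background on at least 3 arrays were kept (34270), and the brightest was taken for each of 25079 genes or unnamed transcripts. Of 55681 probes, 27656 had 1 symbol, 0 had several and 28025 had none. In 22 of 3731 genes with several kept probes, probes were called in opposite directions. limma 3.58.1 in R 4.3.3 fitted 3 groups to 11 arrays (8 residual degrees of freedom), p-values were adjusted by Benjamini-Hochberg over all 25079 features, and those under 0.05 were called. The method was tested on simulated data. A gene above background on no array of a group is given as a bound. Plots used Python 3.11.15 and matplotlib 3.10.9.

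The labels' file numbers were checked for pairing. Deviations from the group means of same-numbered arrays correlated at 0.282, 0.164, 0.205 and 0.136, all above 0.1. Of differently numbered arrays, array 4 of 0 h and array 3 of 48 h correlated at 0.167, above the 0.164 and 0.136. The rest stayed below 0.1. The check thus does not single out every pair, and the pairing rests on the file numbers. Symbols, and promoters of 250 bases before the start, came from RefSeq tables (GRCm38.p6). The genes described are, by rule, the largest changes (25 each way), the smallest p-values (15 each way), all without overlap between the groups, and up to 5 called members of each list each way, with Ctsg, Elane, S100a8, Phgdh, Psat1, Slc7a11 and other genes of wide interest named after their values were seen. Some genes that the rule names are not reported here. All members and gene lists were chosen with earlier results of these data known. Alternatives were other scalings, filters, probe rules, blocks, array weights and left-out arrays.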

Additional observations from a re-analysis of the deposited data

Results flagged for a closer look

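Among the genes described, each with 4 arrays at 0 h and 4 at 48 h, 23 of 314 groups of 4 held 1 array far from the other 3, where chance alone marks about 1 group in 20. Each is given as a scaled log2 signal with the range of the other 3 arrays of its group.

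At 0 h, array 2 was the one apart in 6 genes. It was low for Pfkfb3 at 3.31 (others 3.80 to 3.84), Meis1 at 4.96 (5.21 to 5.26), Bbc3 at 3.20 (3.87 to 3.97) and Snhg12 at 3.21 (5.71 to 6.00), and high for Tpi1 at 6.98 (5.98 to 6.08) and Pkm at 6.92 (6.26 to 6.29). Array 1 was low for Prelid2 at 0.52 (0.88 to 0.90) and high for Tnfsf9 at -2.37 (-2.52 to -2.49). Array 3 was high for Slc3a2 at 6.56 (6.34 to 6.37).

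At 48 h, array 3 stood apart in 6 genes. It was high for Mamdc2 at -2.18 (others -3.995 to -3.91), Vldlr at 2.98 (2.34 to 2.38), Abcg1 at 1.04 (0.80 to 0.84), Stat5b at 2.69 (2.40 to 2.44) and Upf3b at 1.08 (0.75 to 0.80), and low for Mlx at 2.05 (2.12 to 2.14). Array 2 was high for Car9 at 4.68 (3.51 to 3.59) and Tpi1 at 7.68 (7.23 to 7.29) and low for Pim3 at -0.052 (0.33 to 0.36). Array 1 was high for Slc38a2 at 3.96 (3.65 to 3.70) and low for Scd2 at 5.62 (5.81 to 5.84) and Suv39h1 at 2.34 (2.51 to 2.54). Array 4 was low for Ankrd37 at 1.77 (2.29 to 2.36) and Kdm6b at 0.82 (1.17 to 1.20).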

How the results depend on the processing

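The main count of 4657 calls was 2355 with median scaling, 2652 without the filter on dim probes and 2770 with the replicate block among 8 arrays, and 2447 to 5431 with 1 array left out. Higher calls numbered 424, 1495 and 1595 under the same 3 settings and 1392 to 2970 with 1 array left out. Lower calls numbered 1157 without the filter and 1175 with the block among 8 arrays, and 1055 to 2461 with 1 array left out. Calls of at least 2-fold fell to 244 with normexp and quantile normalization and 249 in the deposited table, and were 669 to 1179 with 1 array left out. Every other setting kept these counts within 1.5 times, the replicate block among 11 arrays included (5368, 3052, 2316 and 1000). The share of higher calls changed with the scaling, from 2644 of 4657 to 3623 of 5348 with the percentile taken over probes above background on all arrays, 1849 of 4051 with quantile normalization and 2198 of 4895 with normexp. Of 157 genes followed, 113 kept their direction and their side of the threshold in every setting that held them. The setting that required signal above background on each of the 8 arrays held only 140 of them. Another 43 changed their side of the threshold in at least 1 setting, and 1 changed sign. That gene was Ctsg, not called at 0.22. It was -0.00085 with median scaling, -0.034 with quantile normalization, -0.016 with normexp and -0.016 in the deposited table. The causes of these changes were not tested. Dim genes limit the reading, since a level below background gives only a bound.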
